A study of Mus musculus with 4 samples.

Results

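The 65 genes described here encode the secreted signals that pattern the mouse embryo. They were all autosomal protein-coding genes of the GENCODE mouse annotation (release 21) whose symbols name a Wnt, an Fgf, a Bmp, a Gdf, Tgfb1 to Tgfb3, Nodal, Lefty1 or Lefty2. They made up 65 of 20807 autosomal coding genes, with 19 Wnt, 20 Fgf, 10 Bmp, 10 Gdf and 3 Tgfb genes and 3 genes in the Nodal and Lefty group. Membership follows the symbol alone. It therefore takes in 4 proteins that are not secreted ligands of a receptor: Bmp1, a metalloprotease that processes procollagen, and Fgf11, Fgf12 and Fgf14, which stay in the cell, where Fgf12 and Fgf14 bind voltage-gated sodium channels.

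Wnt proteins bind Frizzled receptors with an Lrp5 or Lrp6 co-receptor and stabilise beta-catenin, which acts with TCF/LEF factors on DNA. FGFs bind receptor tyrosine kinases and drive the Ras and MAP kinase cascade. TGF-beta family ligands (Tgfb, Bmp, Gdf, Nodal) bring together serine/threonine kinase receptors that phosphorylate Smad proteins, and Lefty proteins are secreted inhibitors of Nodal. In embryonic stem cells (ESCs), Fgf4 is the autocrine signal that primes cells to differentiate, Nodal and its inhibitors Lefty1 and Lefty2 are transcribed, and Bmp4 acts with LIF to hold back neural fate.

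Open chromatin was measured by ATAC-seq, in which a transposase inserts adapters into accessible DNA, in E14 cells, a mouse ESC line grown in serum with LIF. There were 4 libraries: 1 after lentiviral delivery of a short hairpin targeting GFP (shGFP) and 3 after delivery of one targeting luciferase (shLuc). In both groups the virus was left on for 8 h, puromycin was then applied at 2 µg/ml for 2 days, and cells were collected 2 days later. Both hairpins are controls that lack a target in mouse cells, so the genes are described in ESCs carrying a control hairpin and not in uninfected cells. The labels do not say whether the shLuc libraries came from separate infections, so their SD may be technical. Each library has its own list of peaks, intervals where sequenced fragments pile up, and the lists held 41943 peaks for shGFP and 17860, 41401 and 31585 for shLuc replicates 1, 2 and 3. The lists carry no score, height or read count. The depth is therefore unknown, and a shorter list leaves fewer peaks to be counted, although not at every set of genes. With 1 library against 3, an exact permutation test cannot go below p = 0.25, so shGFP was set against the SD of the shLuc libraries with no test.

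A missing peak in these lists cannot be read as closed chromatin. Of 10 ESC marker genes, 5, 2, 5 and 6 had a peak within 1 kb of a transcript start in shGFP and shLuc replicates 1, 2 and 3. Zfp42 and Tfcp2l1 had one in all 4 libraries, whereas Pou5f1, Nanog, Sox2 and Dppa4, which define these cells, had none in any. Of 4 housekeeping genes, 3, 1, 3 and 1 had a promoter peak, with Tbp in all 4 libraries and Gapdh in none. All 10 ESC markers had a peak within 20 kb in at least 1 library. Of the markers of other cell types, 0 of 3 neural genes had a promoter peak in any library, against 1, 1, 2 and 1 of 4 endoderm genes, 2, 3, 3 and 3 of 4 mesoderm genes, 1, 0, 2 and 1 of 3 trophoblast genes and 3, 2, 3 and 2 of 3 fibroblast genes. The part of this pattern in the results below was not tested.

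The sequences behind the main contrast are those of CpG-rich ligand promoters that did or did not carry a peak. Mammalian promoters fall into a class rich in CpG dinucleotides and a class poor in them. The 250 bases upstream of the start are shown 5′ to 3′ on the strand of the gene for 3 genes with a promoter peak in all 4 libraries, Wnt5b (chr6:119544348-119544597, minus strand), Wnt9b (chr11:103749822-103750071, minus strand) and Gdf10 (chr14:33923337-33923586, plus strand), and for 4 genes with none in any library, Wnt3a (chr11:59290752-59291001, minus strand), Fgf4 (chr7:144861136-144861385, plus strand), Fgf5 (chr5:98253934-98254183, plus strand) and Nodal (chr10:61417722-61417971, plus strand). They come from RefSeq on GRCm38.p6, whose promoter set matched 45 of the 65 genes. Capitals mark each CpG.
Wnt5b: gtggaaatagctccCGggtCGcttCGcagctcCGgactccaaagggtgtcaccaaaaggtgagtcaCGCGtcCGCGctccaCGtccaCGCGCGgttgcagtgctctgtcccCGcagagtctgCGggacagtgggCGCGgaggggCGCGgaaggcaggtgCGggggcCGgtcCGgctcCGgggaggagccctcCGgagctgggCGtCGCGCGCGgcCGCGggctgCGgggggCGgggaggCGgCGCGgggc
Wnt9b: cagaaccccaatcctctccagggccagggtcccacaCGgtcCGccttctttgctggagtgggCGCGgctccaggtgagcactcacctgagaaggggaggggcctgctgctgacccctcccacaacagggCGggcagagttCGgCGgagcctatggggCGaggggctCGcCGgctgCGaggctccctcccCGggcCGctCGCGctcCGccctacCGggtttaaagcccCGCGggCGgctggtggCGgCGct
Gdf10: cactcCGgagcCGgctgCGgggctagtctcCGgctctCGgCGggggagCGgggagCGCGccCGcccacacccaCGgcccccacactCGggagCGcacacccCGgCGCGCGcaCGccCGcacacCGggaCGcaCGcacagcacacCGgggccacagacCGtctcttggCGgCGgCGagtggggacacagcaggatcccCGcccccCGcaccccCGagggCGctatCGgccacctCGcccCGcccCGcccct
Wnt3a: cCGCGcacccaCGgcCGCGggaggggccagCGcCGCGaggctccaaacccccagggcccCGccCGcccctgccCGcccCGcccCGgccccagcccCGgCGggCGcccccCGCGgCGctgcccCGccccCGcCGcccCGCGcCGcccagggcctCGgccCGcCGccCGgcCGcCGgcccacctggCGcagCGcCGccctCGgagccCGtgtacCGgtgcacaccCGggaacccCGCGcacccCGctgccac
Fgf4: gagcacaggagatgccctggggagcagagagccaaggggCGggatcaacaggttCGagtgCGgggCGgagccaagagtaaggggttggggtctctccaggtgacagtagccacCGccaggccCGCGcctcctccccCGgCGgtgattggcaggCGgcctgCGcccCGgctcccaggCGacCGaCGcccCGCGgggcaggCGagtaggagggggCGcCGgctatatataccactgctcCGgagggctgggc
Fgf5: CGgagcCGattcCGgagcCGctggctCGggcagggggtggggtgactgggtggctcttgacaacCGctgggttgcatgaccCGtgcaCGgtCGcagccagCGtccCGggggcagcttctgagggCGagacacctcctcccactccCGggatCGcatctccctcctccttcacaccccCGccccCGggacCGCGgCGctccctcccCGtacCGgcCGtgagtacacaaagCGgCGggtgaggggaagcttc
Nodal: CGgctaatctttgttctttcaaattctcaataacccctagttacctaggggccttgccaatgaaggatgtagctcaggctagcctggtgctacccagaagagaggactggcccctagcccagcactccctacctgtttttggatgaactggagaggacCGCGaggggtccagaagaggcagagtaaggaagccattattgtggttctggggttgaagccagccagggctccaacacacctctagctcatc
Wnt3a holds 41 CpGs in this window, more than Wnt5b with 35, Gdf10 with 35 or Wnt9b with 22, yet no library had a peak over it. Fgf4 and Fgf5 hold 21 and 24, close to Wnt9b, and also lacked one. Nodal, with 3, is the CpG-poor case.

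Ligand genes had a promoter peak, within 1 kb of any annotated transcript start, less often than coding genes at large in every library. In shGFP it was 27 of 65 genes, or 41.5% (95% Wilson interval 30.4 to 53.7%, counting error only), against 61.9% of all autosomal coding genes. In shLuc replicates 1, 2 and 3 it was 15, 27 and 23 genes, or 23.1%, 41.5% and 35.4%, against 48.4%, 61.5% and 56.3%. The shLuc mean was 33.3% ± 9.40 (SD, n = 3), against 55.4% ± 6.60 for all genes. The shGFP share exceeded that mean by 8.21 percentage points, less than 1 SD. The gap to all genes varied less than the shares themselves: it was -20.4 points in shGFP and -25.3, -20.0 and -20.9 in the shLuc replicates (mean -22.1 ± 2.85 SD, n = 3). Across libraries, 11 ligand genes (16.9%) had a promoter peak in all 4, against 44% of all coding genes, and 32 (49.2%) had one in none, against 34%.

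**Figure D1:**
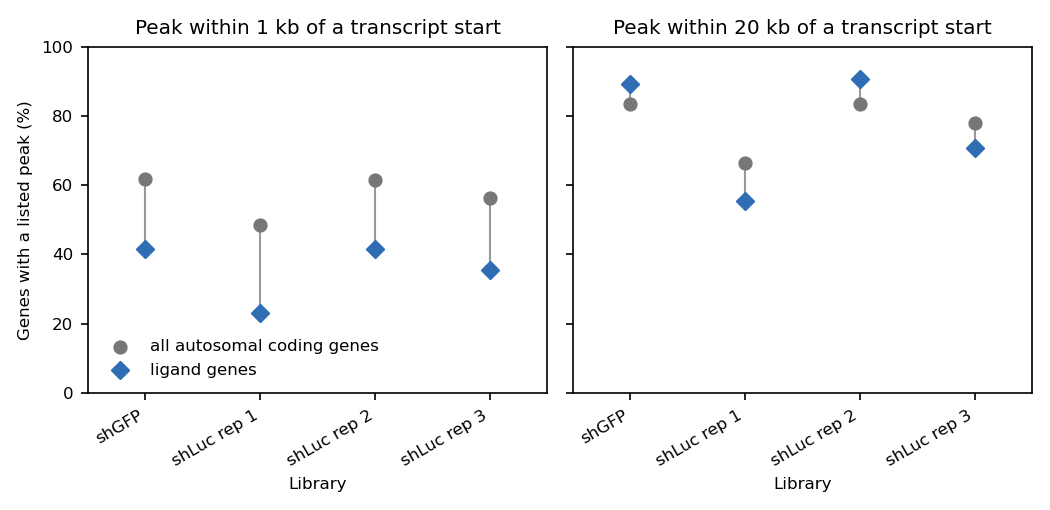
Share of genes with a listed peak within 1 kb (left) or 20 kb (right) of a transcript start, in percent, for the 65 ligand genes (blue diamonds) and all 20807 autosomal coding genes (grey circles) in each library. Within 1 kb the ligand genes lie about 20 to 25 points below all genes in each of the 4 libraries, and within 20 kb they lie above in shGFP and shLuc replicate 2 and below in shLuc replicates 1 and 3.

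Within 20 kb of a start the sign of the difference from all coding genes varied between libraries. In shGFP 58 of the 65 genes (89.2%) had a peak, against 83.5% of all coding genes. In shLuc replicates 1, 2 and 3, 36, 59 and 46 genes had one (55.4%, 90.8% and 70.8%), against 66.3%, 83.4% and 77.9%. The ligand genes thus stood above all genes in the 2 longest lists and below them in the other 2. The shLuc mean was 72.3% ± 17.7 (SD, n = 3), and shGFP lay 16.9 points above it, which is within 1 SD. In all 4 libraries 31 ligand genes had such a peak (47.7%), against 63.1% of all genes. Wnt7b, Wnt9a and Bmp10 were the 3 (4.62%) with none in any, against 13.1% of all genes. Another coding gene started within 20 kb of the principal start of 30 ligand genes (46.2%), against 47.2% of all coding genes.

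**Figure D2:**
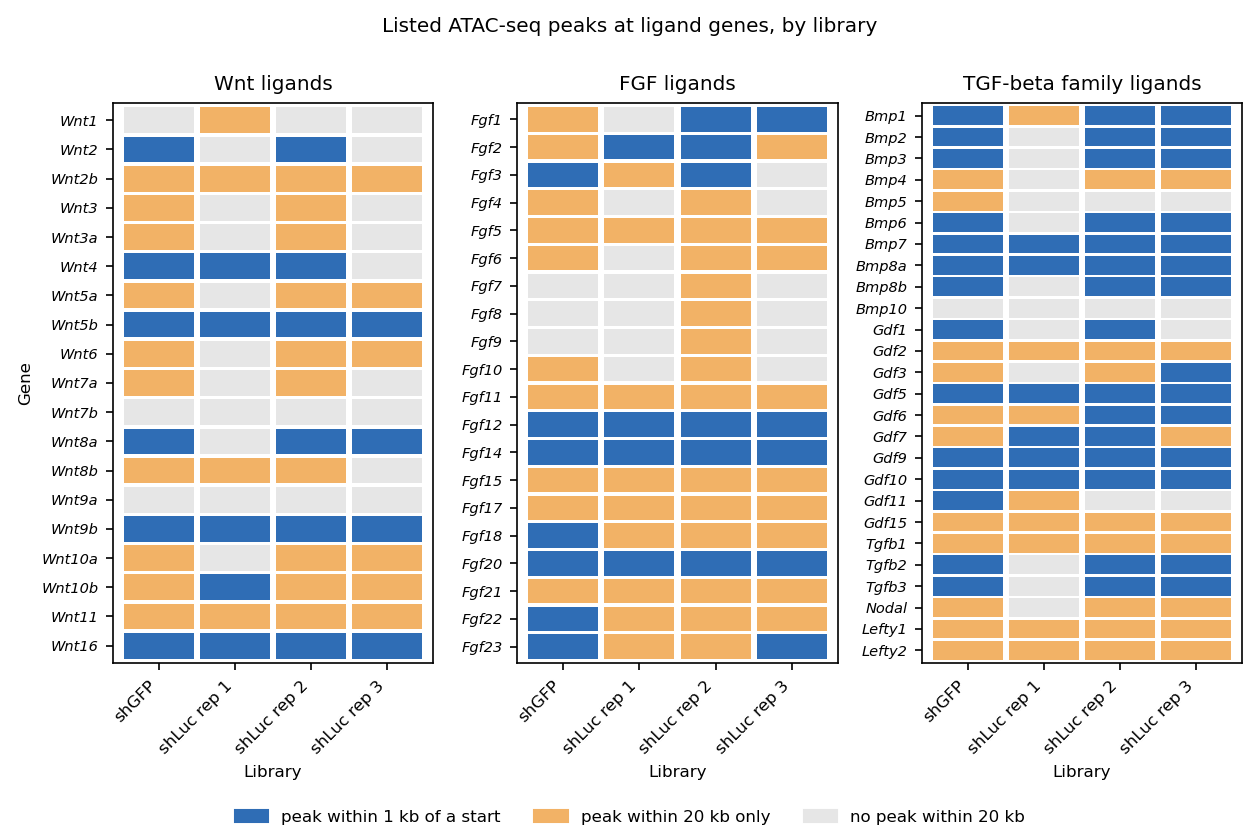
Peak state of each of the 65 ligand genes (rows, by family) in each library (columns): blue for a peak within 1 kb of a start, orange for a peak within 20 kb only, grey for none within 20 kb. Rows that are blue throughout are the 11 genes with a promoter peak in all 4 libraries, and Nodal, Lefty1 and Lefty2 have no blue cell.

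The shortfall lay in CpG-rich promoters. A promoter was called high-CpG where the 500 bp either side of the principal start had at least 50% GC and an observed over expected CpG ratio of at least 0.6. By this measure 35 of 65 ligand genes (53.8%) were high-CpG, against 47.4% of all coding genes, so the ligand genes are not short of CpG-rich promoters. Among these 35, the genes with a promoter peak numbered 16 in shGFP and 10, 17 and 12 in the shLuc replicates. That is 45.7% in shGFP against 91.0% of all high-CpG genes, and 37.1% ± 10.3 against 84.4% ± 6.30 in shLuc (mean ± SD, n = 3). The gap was -45.3 points in shGFP and -49.4, -42.0 and -50.3 in shLuc replicates 1, 2 and 3, larger than the SD of either set. That SD is between the shLuc lists and leaves out the counting error over 35 genes. A promoter peak in all 4 libraries was found at 6 high-CpG ligand genes (17.1%), against 71.6% of all high-CpG genes, and in none at 15 (42.9%), against 4.87%.

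Among the 30 low-CpG ligand genes no such gap was seen. A promoter peak was present at 11, 5, 10 and 11 of them in shGFP and shLuc replicates 1, 2 and 3. The share was 36.7% in shGFP, beside 35.7% of all low-CpG genes, and 28.9% ± 10.7 in shLuc, beside 29.3% ± 6.92 (SD, n = 3). The difference from all low-CpG genes was 0.918 points in shGFP and -5.05, -1.96 and 5.84 in the shLuc replicates, so its sign varied between libraries. The class was set at the principal start, whereas a peak at any start was counted. At low-CpG Gdf9 in all 4 libraries, Fgf20 in shLuc replicate 1 and Fgf1 in shLuc replicates 2 and 3, the peak lay only at another start. The same held for high-CpG Wnt10b in shLuc replicate 1 and Fgf12 in shLuc replicate 3. The length of the list moves with the shares of both classes. When each list was reduced to as many of its widest peaks as the shortest list holds, the gap of the high-CpG ligand genes was -35.1 points in shGFP and averaged -40.5 in shLuc.

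**Figure D3:**
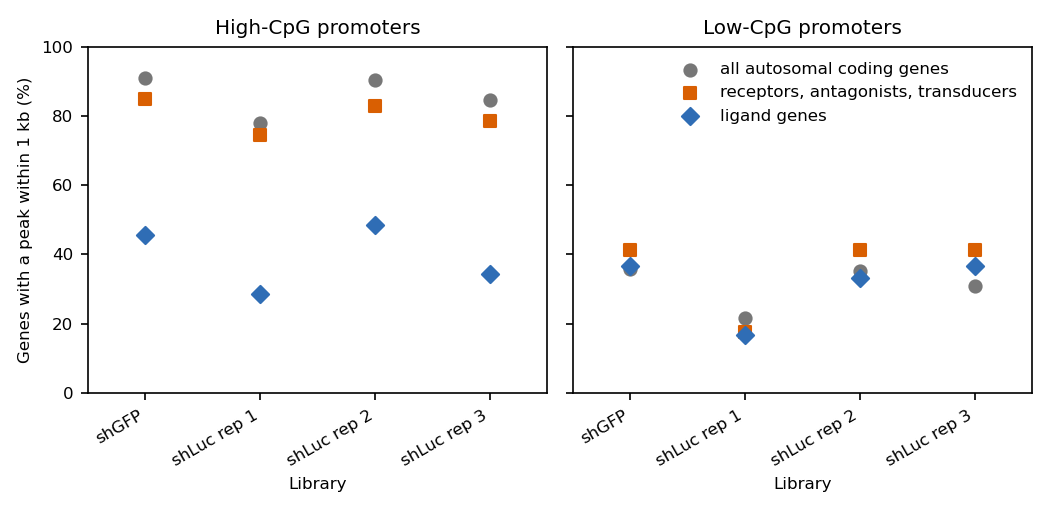
Share of genes with a promoter peak, in percent, in each library, for high-CpG promoters (left) and low-CpG promoters (right). Ligand genes (blue diamonds) lie far below all autosomal coding genes (grey circles) on the left, from 28.6% to 48.6% against 78.0% to 91.0%, and beside them on the right, while the receptors, antagonists and transducers of the same pathways (orange squares) lie near all coding genes on the left.

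The 15 high-CpG ligand genes without a promoter peak in any library were 9 Wnt genes (Wnt2b, Wnt3, Wnt3a, Wnt5a, Wnt6, Wnt7a, Wnt7b, Wnt9a, Wnt11), 5 Fgf genes (Fgf4, Fgf5, Fgf8, Fgf9, Fgf15) and Tgfb1. None was a Bmp or Gdf gene: all 6 high-CpG Bmp genes and all 4 high-CpG Gdf genes had a promoter peak in at least 1 library. These are counts of few genes and were not tested between families. Over all 65, the median CpG ratio was 0.740 in the 11 genes with a peak in every library, 0.644 in the 22 with a peak in some, and 0.556 in the 32 with none, beside 0.586 over all coding genes. Ligand genes had a median of 2 annotated starts, against 3 for all coding genes. With principal starts only, the gap of all 65 to all coding genes was -18.5 points in shGFP and averaged -22.5 in shLuc. With any start it was -20.4 and -22.1 points. The part of the number of starts was not tested.

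Among the Wnt genes, 6, 5, 6 and 4 of 19 had a promoter peak in shGFP and shLuc replicates 1, 2 and 3. All coding genes stood at 61.9%, 48.4%, 61.5% and 56.3%. Wnt5b, which acts mostly without beta-catenin, had a single promoter peak in each library, 1348, 1101, 1259 and 1276 bp wide. Wnt9b, needed for kidney tubules, had peaks 980, 628, 955 and 887 bp wide, and Wnt16, which acts in cortical bone, had peaks of 1233, 805, 1516 and 1072 bp. These 3 were the Wnt genes with a promoter peak in all 4 libraries, and each of those peaks overlapped a start. Wnt4, which directs kidney and ovary development, had peaks of 1228, 1012 and 912 bp in shGFP and shLuc replicates 1 and 2, but its nearest peak in shLuc replicate 3 was 79312 bp away. Wnt2, a lung signal, had wide peaks of 1904 and 1864 bp, in shGFP and shLuc replicate 2 respectively, while the nearest peak in shLuc replicates 1 and 3 was 189662 and 189545 bp away. Wnt8a, an early posterior signal, had narrow ones (397, 438 and 606 bp) in every library but shLuc replicate 1. Wnt10b had a single 525 bp peak, in shLuc replicate 1, at a start other than its principal one.

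The other 12 Wnt genes had no promoter peak in any library: Wnt1, Wnt2b, Wnt3, Wnt3a, Wnt5a, Wnt6, Wnt7a, Wnt7b, Wnt8b, Wnt9a, Wnt10a and Wnt11. Wnt3 and Wnt3a, which act in the primitive streak, each had 1 region within 20 kb, in shGFP and shLuc replicate 2. That of Wnt3 was intergenic, with its near edge 9947 bp upstream of the start, and that of Wnt3a lay in its own intron, 8362 bp from the start. In shLuc replicates 1 and 3 the nearest peaks were 24068 and 23859 bp from Wnt3 and 26318 and 26135 bp from Wnt3a. Both genes thus separated the 2 longest lists from the 2 shortest.

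Among the Fgf genes, 7, 4, 6 and 5 of 20 had a promoter peak in shGFP and shLuc replicates 1, 2 and 3. For all coding genes it was 61.9%, 48.4%, 61.5% and 56.3%. All 3 with one in every library lay outside the best known secreted set: Fgf12 and Fgf14 are the intracellular forms, and Fgf20 acts in the inner ear. Fgf12, with 6 annotated starts, had 5, 3, 4 and 3 promoter peaks. Fgf14 had 1 in each, 1092, 479, 1135 and 965 bp wide. The widest promoter peaks of Fgf20 spanned 1170, 716, 1336 and 1353 bp. Those in shGFP and shLuc replicate 1 lay in a region, found in all 4 libraries, that is also within 1 kb of the start of its neighbour Micu3. That region cannot be assigned to Fgf20 alone. Another region, at the principal start, had peaks in shGFP and shLuc replicates 2 and 3, so the call in shLuc replicate 1 rests on the shared region only. Fgf3, an inner ear and tail bud signal, had peaks of 1180 and 1364 bp in shGFP and shLuc replicate 2. Fgf2, basic FGF, had them in shLuc replicates 1 and 2 (801 and 1436 bp). Fgf23, the phosphate hormone, had narrow ones in shGFP (338 bp) and shLuc replicate 3 (312 bp), Fgf1 had them in shLuc replicates 2 and 3 (562 and 676 bp) at a start other than the principal one, and Fgf18 (1535 bp) and Fgf22 (414 bp) had one in shGFP only. Of these 6 genes, none had a promoter peak in all 3 shLuc libraries.

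The 11 Fgf genes without a promoter peak in any library were Fgf4, Fgf5, Fgf6, Fgf7, Fgf8, Fgf9, Fgf10, Fgf11, Fgf15, Fgf17 and Fgf21. All 20 Fgf genes had a peak within 20 kb in at least 1 library. Fgf8, a signal of the streak and midbrain, had it in shLuc replicate 2 only, at the promoter of its neighbour Npm3. Fgf15 had 3 regions, of which 1, at the promoter of LTO1, was present in all 4 libraries and is 17828 bp from the nearest Fgf15 start.

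Most Bmp genes had a promoter peak in 3 of the 4 libraries. Of 10 genes, 7 had one in shGFP and 2, 7 and 7 in shLuc replicates 1, 2 and 3. Over all coding genes the shares were 61.9%, 48.4%, 61.5% and 56.3%, so only shLuc replicate 1 stood far from them, and below. Bmp7, a kidney and eye signal, had one in every library, 1995, 508, 1158 and 607 bp wide. Bmp8a, which acts in the germ line, had peaks of 1446, 688, 1359 and 1163 bp. Bmp1, Bmp2, Bmp3, Bmp6 and Bmp8b had one in every library except shLuc replicate 1, the shortest list. There the nearest peak was 290325 bp from Bmp2 and 115327 bp from Bmp6, while in the other libraries Bmp2 had promoter peaks of 1311, 1405 and 1153 bp and Bmp6 of 1727, 1413 and 1356 bp. Bmp8a and Bmp8b are close copies on chromosome 4, and reads that fit both equally well were placed at random, so their separate calls are uncertain. Bmp4, Bmp5 and Bmp10 had no promoter peak in any library.

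Of the 10 Gdf genes, 5 had a promoter peak in shGFP and 4, 6 and 5 in shLuc replicates 1, 2 and 3. The shares of all coding genes were 61.9%, 48.4%, 61.5% and 56.3%. Gdf10 had one in all 4, 1033, 682, 955 and 742 bp wide, and is the high-CpG example shown above. Gdf5, the joint signal, had peaks of 671, 426, 780 and 426 bp, but these lay 890, 952, 825 and 970 bp from the start, just inside the limit of 1 kb. Gdf9, made by oocytes, had one in each library (1021, 763, 1097 and 1240 bp) that lay at a secondary start shared with Uqcrq and not at the principal start. Gdf6 had peaks in shLuc replicates 2 and 3, Gdf7 in shLuc replicates 1 and 2, Gdf1 in shGFP and shLuc replicate 2, and Gdf11 in shGFP only. Gdf2 and Gdf15 had none within 1 kb in any. Gdf15 and Wnt8b lay just outside the limit, at 1082, 1026 and 1024 bp for Gdf15 in shGFP and shLuc replicates 2 and 3, and at 1001 bp for Wnt8b in shGFP.

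Tgfb2 and Tgfb3, which act in heart and palate, had promoter peaks in shGFP and shLuc replicates 2 and 3 but not in shLuc replicate 1. The peaks were 947, 894 and 697 bp wide at Tgfb2 and 614, 580 and 746 bp at Tgfb3. With the 5 Bmp genes above and Wnt8a, these make 8 ligand genes missing from the shortest list alone. A promoter peak in exactly 3 libraries, whichever was missing, was found at 13.8% of ligand genes, against 12.6% of all coding genes. Genes missing from the shortest list alone were not counted over all coding genes. In the shortest list 15 of 65 ligand genes had a promoter peak, against 23 to 27 in the other 3. Where present, promoter peaks of ligand genes had a median width of 1052, 688, 1085 and 969.5 bp in shGFP and shLuc replicates 1, 2 and 3, beside 926, 686, 891 and 866 bp for promoter peaks of all coding genes.

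Of the ligands best known from ESCs and the early embryo, Fgf4, Nodal, Lefty1 and Lefty2 lacked a promoter peak in all 4 libraries, as did Bmp4, Tgfb1, Fgf5 and Fgf15. Gdf3, a Nodal-related factor of pluripotent cells, had one in shLuc replicate 3 only, 974 bp wide and 646 bp from a start. All 9 had a peak at a greater distance in at least 1 library. In all, 29 of the 65 ligand genes had peaks 1 to 20 kb from a start but none closer, and Lefty1, Lefty2, Fgf5, Tgfb1 and Fgf15 were among the 12 with such a peak in all 4 libraries. Of the ligand genes, 49.2% had no promoter peak in any library and 4.62% had no peak within 20 kb. Over all coding genes these shares were 34% and 13.1%. In both sets, the genes with peaks at 1 to 20 kb only are those in the first share but not the second. Their count in all 4 libraries was not made over all coding genes.

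For Lefty1, Lefty2, Nodal and Gdf3, ligands of the Nodal branch in ESCs, the nearest recurrent region upstream of each gene is shown. Each is a window of 200 bases at the centre of the merged region, taken from the plus strand of GRCm38: chr1:180924766-180924965 for Lefty1, chr1:180888731-180888930 for Lefty2, chr10:61406113-61406312 for Nodal and chr6:122624583-122624782 for Gdf3. A window in the Fgf5 intron, chr5:98255846-98256045, is added as the closest to a start among the regions of these genes present in all 4 libraries. Capitals mark matches, on either strand, to the FOXH1 letters AATNCACA, the SOX letters ACAATG, the TCF/LEF letters CTTTGAT or the octamer ATGCAAAT.
Lefty1: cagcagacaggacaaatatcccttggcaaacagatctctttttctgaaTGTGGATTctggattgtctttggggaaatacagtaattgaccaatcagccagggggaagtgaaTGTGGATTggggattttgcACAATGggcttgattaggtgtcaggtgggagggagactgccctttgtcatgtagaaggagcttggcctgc
Lefty2: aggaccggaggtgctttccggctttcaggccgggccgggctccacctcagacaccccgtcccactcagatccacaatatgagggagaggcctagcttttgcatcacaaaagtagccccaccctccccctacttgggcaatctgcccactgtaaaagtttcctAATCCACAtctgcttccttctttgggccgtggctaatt
Nodal: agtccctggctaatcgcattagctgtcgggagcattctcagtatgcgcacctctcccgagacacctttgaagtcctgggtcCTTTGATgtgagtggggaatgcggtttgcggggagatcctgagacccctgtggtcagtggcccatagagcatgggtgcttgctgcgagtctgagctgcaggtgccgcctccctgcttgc
Gdf3: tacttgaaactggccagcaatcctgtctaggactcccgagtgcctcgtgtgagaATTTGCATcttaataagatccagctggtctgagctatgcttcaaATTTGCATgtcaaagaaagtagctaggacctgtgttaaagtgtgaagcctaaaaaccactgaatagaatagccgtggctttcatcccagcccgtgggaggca
Fgf5: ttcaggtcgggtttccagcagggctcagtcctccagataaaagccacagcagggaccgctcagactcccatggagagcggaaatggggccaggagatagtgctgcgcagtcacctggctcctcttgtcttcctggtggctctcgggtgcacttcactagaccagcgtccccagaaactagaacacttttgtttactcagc
The Lefty1 window holds the FOXH1 letters at 2 places and the SOX letters once, the Lefty2 window holds the FOXH1 letters once, the Nodal window holds the TCF/LEF letters once, and the Gdf3 window holds the octamer at 2 places. The Fgf5 window holds none of them. Nor does the window chr1:180874109-180874308 of a farther upstream Lefty2 region, present in 3 libraries and not shown. FOXH1 is the DNA-binding partner of Smad proteins downstream of Nodal, and the octamer is read by the factor encoded by Pou5f1. A match describes the letters only.

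Lefty2 (chr1:180893108-180899103, plus strand) had the nearest of these upstream regions. In shGFP and shLuc replicates 1, 2 and 3 its nearest peak lay 3050, 3916, 3673 and 3060 bp upstream of the start, within 1 merged intergenic region (chr1:180888288-180890058). For Lefty1 (chr1:180935022-180938400, plus strand) the nearest peak lay 9645, 9989, 9588 and 9821 bp upstream, again in 1 intergenic region present in all libraries (chr1:180924633-180925434). Nodal (chr10:61417972-61425338, plus strand) had its only region within 20 kb at chr10:61405914-61406541. Its nearest peak was 11547, 11569 and 11431 bp upstream in shGFP and shLuc replicates 2 and 3, and 22904 bp away in shLuc replicate 1. All 3 genes of the Nodal and Lefty group thus had an upstream intergenic peak in at least 3 libraries and a promoter peak in none.

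Fgf4 (chr7:144847367-144865243, plus strand) had a peak within 20 kb in shGFP and shLuc replicate 2 only. The nearest, at chr7:144851156-144851704, lay in an intron of an extended Fgf4 transcript model, 3813 and 3789 bp from the start of that model, and spans positions -10230 to -9682 from the principal start. The other region was the promoter of the neighbouring Fgf3. In shLuc replicates 1 and 3 the nearest peak was 25108 and 27414 bp away. Fgf5, a marker of the step from naive to primed pluripotency, had a peak in its intron in all 4 libraries, 1348, 1340, 1340 and 1340 bp from a start. It was the only region within 20 kb of a start of Fgf5.

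For Tgfb1 the peak within 20 kb was in all 4 libraries the promoter of B9d2, 5824 to 5878 bp from the Tgfb1 start. It cannot be assigned to Tgfb1 by position. Bmp4 had 2 regions, each in 2 libraries: an intergenic one 7287 bp upstream in shGFP and shLuc replicate 3, and one at the promoter of the gene model Gm15217 in shGFP and shLuc replicate 2. In shLuc replicate 1 the nearest peak was 175091 bp from Bmp4. The region 14339 bp upstream of Gdf3, at chr6:122624426-122624941, was present in shGFP and shLuc replicates 2 and 3 and lies at the start of the noncoding gene Gm26168.

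**Figure D4:**
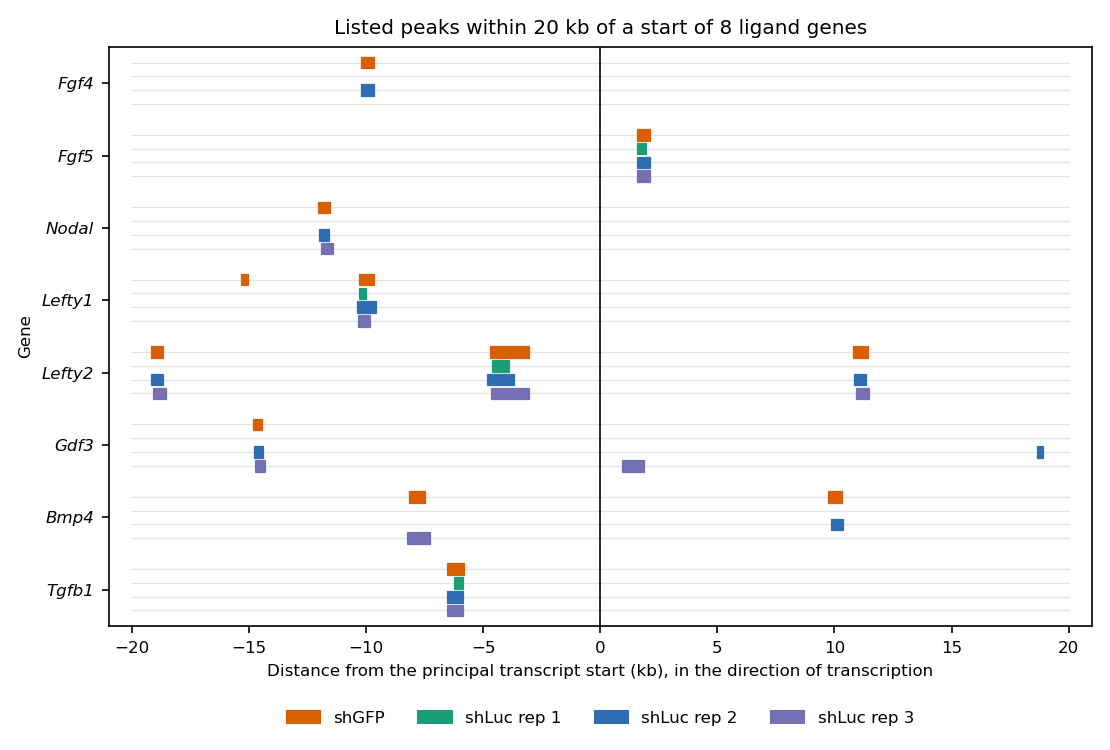
Listed peaks of 8 ligand genes against the distance from the principal start in kb, with the direction of transcription to the right and 1 line per library (colours). Peaks that recur at 1 place in all 4 libraries are seen at Fgf5, Lefty1, Lefty2 and Tgfb1 and in 3 libraries at Nodal and Gdf3, and no peak lies within 1 kb of the vertical line except the shLuc replicate 3 peak of Gdf3, whose near edge is 909 bp from it. The Fgf3 promoter peak counted for Fgf4 through its extended transcript lies beyond the left edge.

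Over all ligand genes, peaks within 20 kb of a start made up 134 merged regions and, since 8 regions lie near a pair of ligand genes, 142 gene and region pairs. Of the pairs, 39 were promoters of the ligand gene (37 its own and 2 shared with another coding gene), 28 were promoters of other coding genes, 5 of noncoding genes, 31 were intergenic, 25 lay in introns (14) or exons (11) of the ligand gene and 14 in introns (7) or exons (7) of another gene. Of the 28 at other coding promoters 14 were present in all 4 libraries, against 4 of the 31 intergenic ones. For Wnt1, Fgf8, Fgf11 and Tgfb1, every region within 20 kb was at the start of another coding gene, whereas 25 other genes without a promoter peak had at least 1 region away from any coding start. None of these counts was made for the regions near all coding genes. They therefore cannot be read as particular to ligand genes.

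Motif letters were counted in windows of 300 bp at the centre of each region, beside all regions of the same class. In 64 ligand regions at coding promoters the SP/KLF letters GGGCGG, typical of CpG-rich promoters, occurred in 68.8%, against 60.8% of all such regions, and the TCF/LEF letters in 4 (6.25%), against 1.83%. The octamer occurred there in 1.56% against 1.06%, the SOX letters in 4.69% against 6.03% and the FOXH1 letters in 1.56% against 1.62%. In the 70 regions away from coding promoters, the octamer occurred in 5.71% against 3.85%, the FOXH1 letters in 5.71% against 4.70%, the SOX letters in 12.9% against 15.0%, the TCF/LEF letters in 2.86% against 4.92% and the SP/KLF letters in 22.9% against 16.4%. In the RefSeq promoters, 66.7% of the 45 matched ligand genes held the SP/KLF letters, against 33.0% of all promoters, and 4.44% the TCF/LEF letters, against 3.23%. The octamer was in 0 of the 45, against 1.61% of all promoters, the SOX letters in 6.67% against 10.3% and the FOXH1 letters in 2.22% against 3.17%. These shares rest on few regions and are descriptions with no test.

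The genes that receive and transmit these signals had promoter peaks more often than the ligand genes. Over 111 receptors, secreted antagonists, transducers and feedback genes, 87, 73, 85 and 81 had a promoter peak in shGFP and shLuc replicates 1, 2 and 3, and 65 had one in all 4. The share was 78.4% in shGFP and 71.8% ± 5.50 in shLuc (SD, n = 3), beside 61.9% and 55.4% ± 6.60 of all coding genes. Of all coding genes, 44.0% had a promoter peak in all 4 libraries. These lists are rich in CpG promoters, 94 of 111. Within the high-CpG class the share was 85.1% in shGFP and 78.7% ± 4.26 in shLuc. All high-CpG coding genes stood somewhat higher, at 91.0% and 84.4% ± 6.30. The high-CpG ligand genes stood at 45.7% and 37.1% ± 10.3, a distance from the pathway genes larger than the SD of either set. Here and in the low-CpG class, the SD is that between the shLuc lists. It does not measure the counting error of a share over few genes. Within the low-CpG class, where the pathway lists hold 17 genes, the share was 41.2% in shGFP and 33.3% ± 13.6 in shLuc. The low-CpG ligand genes stood at 36.7% and 28.9% ± 10.7, a distance smaller than the SD of either set. All low-CpG coding genes stood at 35.7% and 29.3% ± 6.92.

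**Figure D5:**
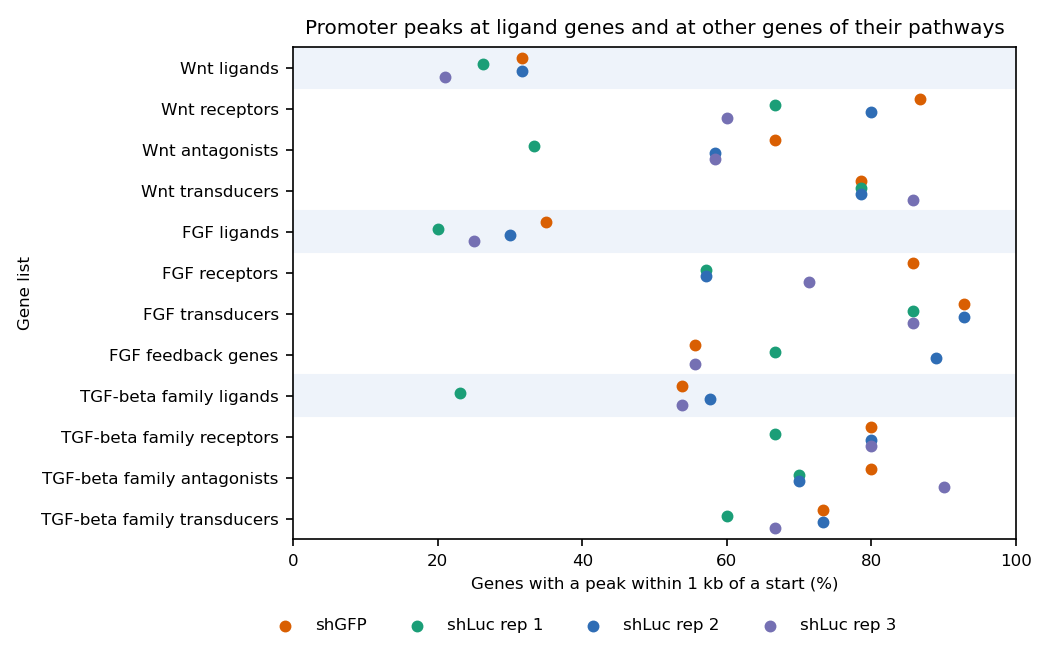
Share of genes with a promoter peak, in percent, in each library (colours), for the ligand genes of the 3 signalling families (shaded rows) and for the receptors, antagonists, transducers and feedback genes of each pathway. Wnt and FGF ligands lie at or below 35% in all libraries, whereas the transducers of both pathways lie above 75% in all 4. The contrast is narrower in the TGF-beta family. Its ligands lie above those of Wnt and FGF in shGFP and shLuc replicates 2 and 3, and its transducers at 73.3% in shGFP and 66.7% on average in shLuc.

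By pathway, 13, 10, 12 and 9 of 15 Wnt receptors had a promoter peak in shGFP and shLuc replicates 1, 2 and 3, among them Fzd1, Fzd3, Fzd4, Fzd6 and the co-receptor Lrp6 in all 4. Of 14 Wnt transducers, 11, 11, 11 and 12 had one, including Ctnnb1 (beta-catenin), Apc, Axin1 and Gsk3b. Of 12 Wnt antagonists it was 8, 4, 7 and 7, the lowest shares among the Wnt lists apart from the ligands. Only 6 of these 12 were high-CpG, against all 15 Wnt receptors and all 14 Wnt transducers. In the FGF pathway 6, 4, 4 and 5 of 7 receptors had a promoter peak, with Fgfr1 in all 4, and 13, 12, 13 and 12 of 14 transducers, such as Grb2 and Braf. The feedback genes stood at 5, 6, 8 and 5 of 9, with Spry1, Dusp6, Etv4 and Etv5 in all 4. For the TGF-beta family the counts were 12, 10, 12 and 12 of 15 receptors, 8, 7, 7 and 9 of 10 antagonists and 11, 9, 11 and 10 of 15 transducers. No promoter peak was found in any library at the receptor genes Tdgf1, a Nodal co-receptor, Acvrl1 and Amhr2. The same held for the transducer genes Foxh1, the Smad partner, Smad6, Id1 and Id3. Cfc1, on the same receptor list as Tdgf1, had one in shGFP and shLuc replicates 2 and 3. Smad2, Smad4 and the receptor Acvr1b had one in every library.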

How the data were processed

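The submitters' processing notes name bcl2fastq, Bowtie2 and MACS2 and the build mm10. The methods of the study state that reads went to mm10, the best alignment was kept, equally good positions were settled at random, mitochondrial reads were dropped and concordant pairs were used. The peak threshold and any read shift are not given in the sources used here. The authors deposited 1 list per library holding the chromosome, start and end of each peak, with no other unit. Here a gene had a peak when an interval came within 1 kb (promoter) or 20 kb of any of its GENCODE release 21 transcript starts. All peaks ended within GRCm38 chromosome lengths, and coordinates are counted from 1. The principal start is that of the most upstream transcript marked as principal (APPRIS). Overlapping peaks of the 4 libraries were merged into regions. CpG content used 500 bp either side of the principal start. Named were a fixed set of ligands of early development, every other gene with a promoter peak, and pathway or marker genes found in all libraries or none. Cfc1 was named in addition. The members, lists and motifs were chosen with earlier results of these data known, and the restriction of the alternatives to high-CpG genes was added after seeing them. The window test was tested on simulated data and placed 2000 of 2000 genes correctly. Python 3.11.15, numpy 2.4.6, scipy 1.17.1, pysam 0.24.0 and matplotlib 3.10.9 were used.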

Additional observations from a re-analysis of the deposited data

How the results depend on the processing

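The lower share of promoter peaks at ligand genes than at all coding genes kept its sign in shGFP and in the shLuc mean under each alternative tried, which changed the window, the starts used, the peaks kept or the libraries. With a window of 5 kb in place of 1 kb the shGFP share rose to 56.9%, its gap to all coding genes narrowed from -20.4 to -12.4 points, and the genes without a peak in any library fell to 20. Leaving out 1 shLuc library gave 11 to 19 genes with a promoter peak in all remaining libraries, the highest without shLuc replicate 1. The share within 20 kb was less stable. In shGFP it was 70.8% with a 10 kb window, 98.5% with 50 kb, 70.8% with the widest 50% of each list and 61.5% with each list reduced to as many of its widest peaks as the shortest list has, and in shLuc it was 90.3% with 50 kb and 48.2% with the widest 50%. Its difference from all coding genes changed sign from 5.73 points in shGFP to -4.64 with 10 kb and -4.30 at equal list length, and from -3.57 points in shLuc to 2.93 with 50 kb. Leaving out 1 shLuc library gave -9.04 to 0.111 points, the last without shLuc replicate 1. Among high-CpG ligand genes, alternatives chosen after seeing the data moved the shGFP share to 61.9% when high-CpG meant a ratio of at least 0.75 and 55% GC (21 genes), still -30.5 points from all such genes, and the count in all libraries ranged from 6 to 11 when 1 shLuc library was left out, the highest again without shLuc replicate 1. The causes were not tested. Of 137 comparisons with an alternative, 117 moved by less than the replicate SD (in shGFP the 95% interval) or, for counts, by less than 1.5 times. No paired analysis was possible because there is a single shGFP library and no test was run. Without depth or peak scores, a peak missed for lack of reads cannot be told apart from a site without one.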
